A study of Mus musculus with 12 samples.

Results

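Whole kidneys of sham-operated mice from a Pkd1 model, with and without Cre, were compared by RNA-seq over all genes. The 6 sham libraries, of 12 in the series, were taken by their labelled surgery and Cre status, which gave 3 CrePlus and 3 CreMinus libraries. Sham CrePlus mice carried Cre and sham CreMinus mice did not, and both groups were adult Pkd1 mice. Per the labels' protocols the mice of both groups were induced with tamoxifen and were 6 to 8 weeks old, and the kidney was taken 4 weeks after the sham operation, which leaves both kidneys in place. The other 6 libraries came from mice that lost 1 kidney (unilateral nephrectomy, UNx), with and without Cre, 3 of each. The labels do not name the Cre line, the cells in which it acts, the deleted part of Pkd1 or the share of cells that had lost it. The labels' protocol gives 3 mice a group, so the p-values reflect how these libraries vary. The title of sham CrePlus replicate 1 holds a group name where the other titles hold a number, and the second version of the authors' sham table leaves that library out. Values of 3 libraries are given in the order of replicates 1, 2 and 3.

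Pkd1 encodes polycystin-1, a large membrane protein that forms a complex with polycystin-2, the product of Pkd2, and the complex sits at the primary cilium of tubule cells. Loss of either protein causes polycystic kidney disease, in which tubules widen into fluid-filled cysts. Tamoxifen-inducible Cre is a recombinase fused with the hormone-binding portion of an estrogen receptor, and after induction it removes the marked part of the target gene. In the adult kidney cysts form slowly after loss of Pkd1. Removal of a kidney makes the remaining kidney grow, a stimulus that sham-operated mice do not have.

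The sham libraries held 20500587 to 22480895 counts, and 14970 genes were tested. Each sham group held 2 female libraries and 1 male library, replicate 3 in both, as read from Xist and Y-linked genes, since the labels give no sex. The first principal component of the sham libraries (56.1% of variance) separated them by sex. The tubule markers of a kidney were present: Slc34a1, the main phosphate transporter of the proximal tubule, was at 5315, 5097 and 6521 CPM (counts scaled to a common library size) in CreMinus and 6801, 5380.0 and 6848 CPM in CrePlus libraries, and Umod, the uromodulin gene of the loop of Henle, was at 4680.3, 5528 and 5011 and 5542, 6364 and 4437 CPM. A few libraries stood apart. Sham CrePlus replicate 1 held 43 genes that lay over 1 log2 unit above all other sham libraries, with tubular injury genes among them. Sham CrePlus replicate 3 held 51 such genes and 109 that lay as far below, and it was the library with brown fat genes: Ucp1, the uncoupling protein of brown fat, was at 33.8 CPM there and at 0 to 0.191 CPM in the other 5. The other 4 sham libraries held 2 to 21 genes above and 16 to 32 below the rest by that margin. Spearman correlations of log2 CPM between sham libraries were 0.967 to 0.993.

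Pkd1 (NCBI gene 18763, chr17:24548689-24596514, GRCm38), the targeted gene, was at 76.8, 60.3 and 57.8 CPM in CreMinus and 64.1, 46.1 and 45.9 CPM in CrePlus libraries. The groups overlapped, since CrePlus replicate 1 lay above CreMinus replicates 2 and 3. The log2 fold change of CrePlus over CreMinus was -0.32 ± 0.18 (SE, edgeR adjusted p = 1.00), which did not pass. Reads outside the deleted part count toward the gene, so these values do not measure the deletion. Pkd2 (NCBI gene 18764, chr5:104453982-104505819) was at 259.5, 329.5 and 294 CPM in CreMinus and 416, 492 and 481 CPM in CrePlus libraries. All 3 CrePlus libraries lay above all 3 CreMinus libraries, and the log2 fold change of 0.65 ± 0.12 did not pass (edgeR adjusted p = 0.235). The authors' deposited table of the 6 sham libraries gives Pkd2 a log2 fold change of 0.53 (adjusted p = 0.0104). DESeq2 on all 12 libraries gave Pkd2 an adjusted p of 0.000297.

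Irf5 (NCBI gene 27056, chr6:29526130-29541869), an interferon regulatory factor of macrophages named in the title of the series, was at 12.9, 11.8 and 15.8 CPM in CreMinus and 16.5, 17.4 and 22.7 CPM in CrePlus libraries. The groups did not overlap, and the log2 fold change of 0.48 ± 0.29 did not pass (edgeR adjusted p = 1.00). Esr1 (NCBI gene 13982, chr10:4611989-5005633), the estrogen receptor gene, was at 2.99, 4.09 and 8.28 CPM in CreMinus and 31.1, 30.03 and 26.8 CPM in CrePlus libraries. Every CrePlus library was over 3 times the highest CreMinus library, and the log2 fold change was 2.52 ± 0.46. Esr1 did not pass in the 12-library edgeR fit (adjusted p = 0.215), nor in edgeR on the 6 sham libraries alone, which called 0 genes. In the female libraries alone, 2 in each sham group, the edgeR log2 fold change of Esr1 was 3.11. Esr1 passed with a sex term in the edgeR fit (adjusted p = 0.00539) and in the authors' deposited table, with 1.09 (adjusted p = 4.85e-09). The fold changes in that table were smaller than the ones fitted here, and its header does not say how they were estimated. The counts do not separate reads of a Cre construct that carries part of the receptor from reads of the native gene, and the labels name no construct.

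**Figure D1:**
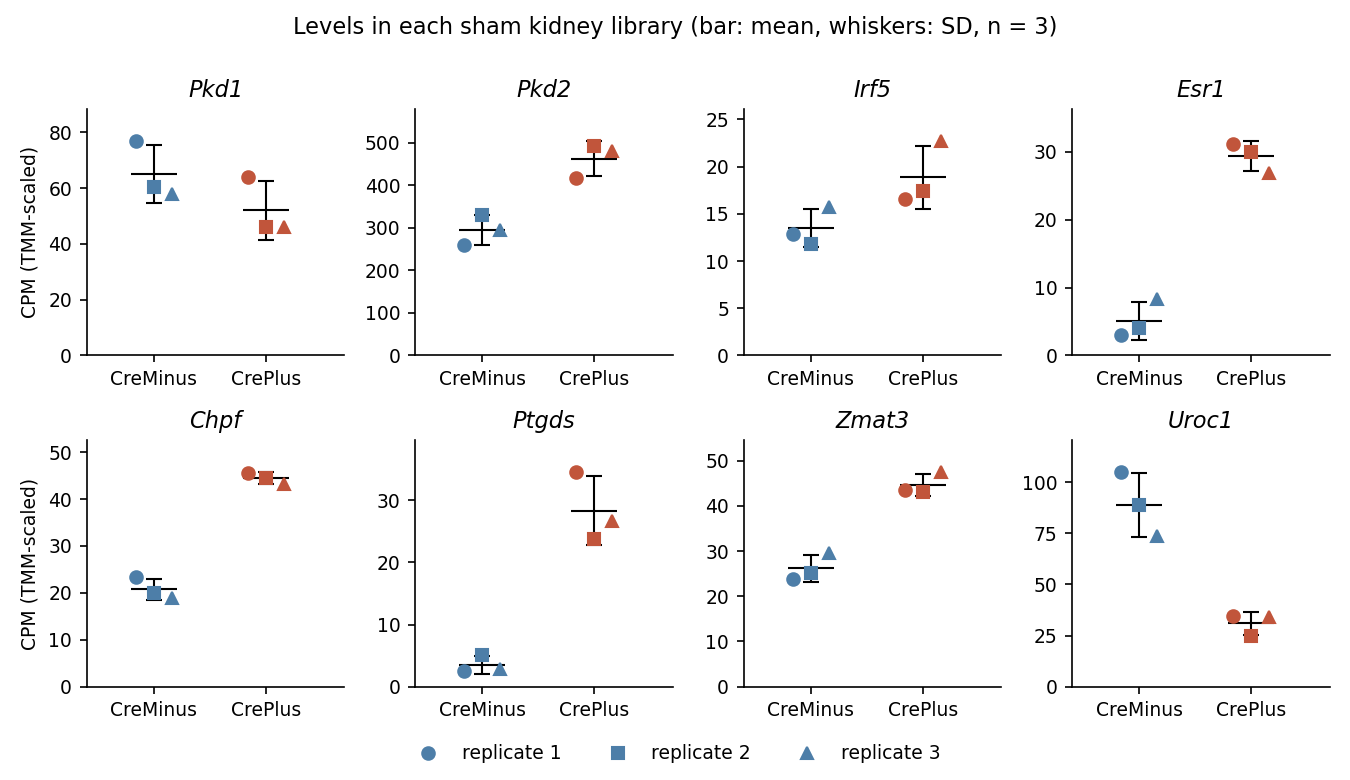
Each panel plots 1 gene, with CPM (TMM-scaled) on the vertical axis and the 3 CreMinus and 3 CrePlus sham libraries as points, with the mean and SD of each group. The groups overlap for Pkd1 only, and for Pkd2, Esr1, Chpf, Ptgds, Zmat3 and Uroc1 the gap between the groups is wider than either group.

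With Cre, sham kidneys held more Chpf, Ptgds and Zmat3 mRNA and less Uroc1 mRNA. These were the 4 genes of 14970 with an adjusted p under 0.05 (0.0267% of genes), while 606 had an unadjusted p under 0.05 (4.05%), 397 of them higher (2.65%) and 209 lower (1.4%). The 3 genes that rose differ in what they do: Chpf encodes a factor that extends chondroitin chains, Ptgds the lipocalin-type prostaglandin D synthase and Zmat3 an RNA-binding zinc finger protein that p53 induces. Uroc1 encodes urocanase, an enzyme of histidine breakdown.

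Chpf (NCBI gene 74241, chr1:75474569-75479471) was at 23.3, 20.1 and 19 CPM in CreMinus and 45.6, 44.5 and 43.2 CPM in CrePlus libraries, and its log2 fold change was 1.10 ± 0.10 (SE, edgeR adjusted p = 0.00678). The 3 CrePlus values lay within 3 CPM of each other. Ptgds (NCBI gene 19215, chr2:25466709-25470110) was at 2.49, 5.07 and 2.9 CPM in CreMinus and 34.5, 23.8 and 26.7 CPM in CrePlus libraries, a log2 fold change of 3.02 ± 0.36 (adjusted p = 0.0257). Even the lowest CrePlus library was over 4 times the highest CreMinus library. Zmat3 (NCBI gene 22401, chr3:32334792-32365665) was at 23.8, 25.2 and 29.5 CPM in CreMinus and 43.4, 43 and 47.4 CPM in CrePlus libraries, with 0.77 ± 0.09 (adjusted p = 0.0257). Uroc1 (NCBI gene 243537, chr6:90333239-90364551) was at 105, 88.6 and 73.5 CPM in CreMinus and 34.3, 24.6 and 34 CPM in CrePlus libraries, and it fell by 1.52 ± 0.19 on the log2 scale (adjusted p = 0.0301). The highest CrePlus library lay far below the lowest CreMinus library.

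Leaving out 1 library at a time moved the log2 fold change of these genes little: it ran from 1.04 to 1.18 for Chpf, 2.82 to 3.39 for Ptgds, 0.69 to 0.86 for Zmat3 and -1.64 to -1.39 for Uroc1. The calls depended on the libraries. Chpf lost its call only without sham CreMinus replicate 2 (edgeR adjusted p = 0.0534). Ptgds lost its call without any one of the 6 sham libraries, UNx CreMinus replicate 3 or UNx CrePlus replicate 2 (adjusted p up to 0.192). Zmat3 lost it without any one sham library but CreMinus replicate 3, any UNx CrePlus library, or UNx CreMinus replicate 1 or 3 (up to 0.19). Uroc1 lost it without the same 5 sham libraries, any UNx CrePlus library, or UNx CreMinus replicate 2 (up to 0.184). With a sex term in the fit all 4 kept a call, among 10 genes called (0.0668%).

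No other tested enzyme of the pathways of Ptgds, Chpf and Uroc1 was called. Of 16 tested prostaglandin enzymes and receptors, 8 were higher and 8 lower, the median log2 fold change was 0.00, and Ptgds was the only one called. The next by p was the inducible cyclooxygenase Ptgs2, at 0.543, 0.329 and 0.14 CPM in CreMinus and 0.593, 0.861 and 0.494 CPM in CrePlus libraries (log2 fold change 0.93 ± 0.47), where the groups overlapped. Of 18 chondroitin synthesis enzymes, 14 were higher, the median was 0.14, and Chpf was the only one called. Chst13, a sulfotransferase, had the opposite sign, with 1.04, 1.6 and 1.26 CPM in CreMinus and 0.509, 0.717 and 0.692 CPM in CrePlus libraries (-1.02 ± 0.31, edgeR adjusted p = 0.91). Of 6 histidine genes tested, Uroc1 was the only one called. Ftcd, the folate-dependent enzyme of the same pathway, was at 5.79, 4.65 and 21.5 CPM in CreMinus and 6.7, 4.06 and 25 CPM in CrePlus libraries, high in the male libraries of both groups, and Hal, which makes the substrate of urocanase, had at most 0.136 CPM and was not tested.

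**Figure D2:**
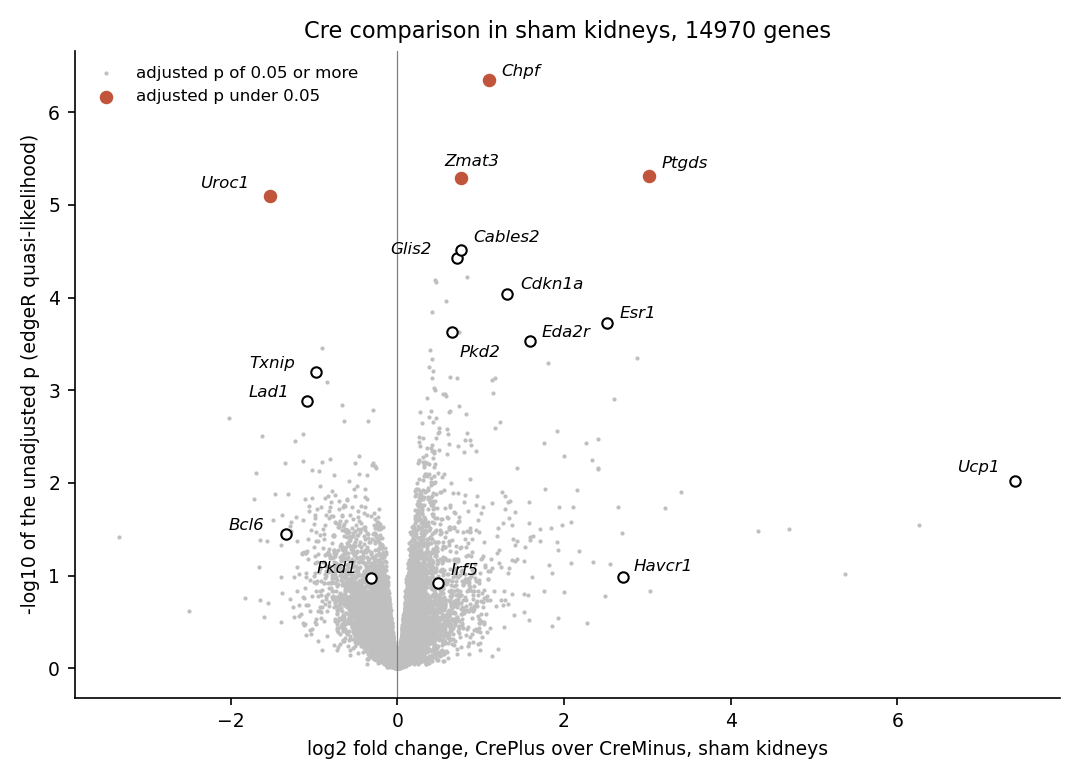
Each point is 1 of 14970 tested genes, with the log2 fold change of CrePlus over CreMinus sham kidneys on the horizontal axis and the negative log10 of the unadjusted p of edgeR on the vertical axis. The 4 called genes are filled, open circles mark other genes that the text names, and Ucp1 and Havcr1, far to the right and low, had most of their CrePlus counts in 1 library.

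p53 is a transcription factor that responds to DNA damage and other stress and switches on genes that halt the cell cycle, repair DNA or start cell death. Of 24 p53 target genes, all were tested, 18 were higher in CrePlus sham kidneys and 6 lower, against 50.4% of all genes higher. The median log2 fold change was 0.12, against 0.00 over all genes. Zmat3 alone was called, 9 had an unadjusted p under 0.05 and a higher value (2.65% of all genes), none with a lower one, and in 8 all CrePlus libraries lay above all CreMinus libraries, against 4.66% of all genes. The list was drawn up with earlier results of these libraries known, so its direction is a description.

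Cdkn1a, which encodes the cell cycle inhibitor p21, was at 11, 8.6 and 8.65 CPM in CreMinus and 25.2, 25.8 and 19.6 CPM in CrePlus libraries. All CrePlus libraries lay above all CreMinus libraries, and the log2 fold change of 1.32 ± 0.22 did not pass in the 12-library edgeR fit (adjusted p = 0.136). In the authors' deposited table it stands at 0.95 (adjusted p = 2.24e-08). Eda2r, a receptor of the tumor necrosis factor family, was at 1.18, 1.03 and 1.31 CPM in CreMinus and 3.52, 3.87 and 3.21 CPM in CrePlus libraries (1.59 ± 0.30, edgeR adjusted p = 0.275), again with no overlap. Ccng1, cyclin G1, was at 178, 196 and 216 CPM in CreMinus and 275, 280.3 and 321 CPM in CrePlus libraries (0.57 ± 0.13, edgeR adjusted p = 0.473), and the CrePlus libraries lay above the CreMinus ones at a much higher level. Psrc1, a spindle gene, was at 0.86, 0.705 and 0.374 CPM in CreMinus and 1.91, 3.16 and 1.78 CPM in CrePlus libraries (1.81 ± 0.37). Phlda3, an Akt inhibitor, was at 5.7, 4.7 and 4.25 CPM in CreMinus and 7.04, 11 and 8.85 CPM in CrePlus libraries (0.87 ± 0.28), and Plk2, a polo-like kinase, at 13.9, 11.5 and 10.1 CPM in CreMinus and 14.6, 15.5 and 15.7 CPM in CrePlus libraries (0.37 ± 0.13). These 3 also did not overlap between the groups and did not pass in the 12-library edgeR fit (adjusted p = 0.362, 1.00 and 1.00). DESeq2 on all 12 libraries called Psrc1 (adjusted p = 0.00407).

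Polk, a DNA polymerase of damage bypass, was higher without overlap by 0.14, and the 16 other targets overlapped, with log2 fold changes from -0.16 to 0.68. Mdm2, the ubiquitin ligase that removes p53, was at 53.6, 48.2 and 50.5 CPM in CreMinus and 52.7, 53.1 and 57.9 CPM in CrePlus libraries (0.10 ± 0.07), and Bax, a cell death effector, had a log2 fold change of 0.06 ± 0.11. The death genes Bbc3 (-0.03), Fas (-0.04) and Perp (-0.16) lay just below 0.

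Promoters of the p53 targets were read from RefSeq windows (GRCm38.p6, 250 bases before to 50 after each annotated start), to show which of these genes carry the letters of a p53 half-site near a start. The half-site was searched by its usual consensus of 10 bases, a pattern that reads alike on both strands. Only exact matches were marked, so a stretch that departs from the consensus at any base was left out. A full site was counted where 2 half-sites lay at most 13 bases apart. Of 24 targets 18 had a window, and 8 of the 18 (Aen, Bax, Ccng1, Cdkn1a, Ei24, Mdm2, Polk and Sesn1) held a half-site. Of all 27025 genes with a window 9.55% held a half-site in at least 1 window and 0.074% a full site, and of the tested genes with a window 8.4% held a half-site. By window, 8.36% of 32851 held a half-site. Cdkn1a was the only target with a full site, in the window of its upstream start, and its second window held none. The windows of Cdkn1a, of Ccng1, which was higher, and of Mdm2, which was not called and overlapped, are shown with the half-sites in capitals.
Cdkn1a (chr17:29090729-29091028, plus strand): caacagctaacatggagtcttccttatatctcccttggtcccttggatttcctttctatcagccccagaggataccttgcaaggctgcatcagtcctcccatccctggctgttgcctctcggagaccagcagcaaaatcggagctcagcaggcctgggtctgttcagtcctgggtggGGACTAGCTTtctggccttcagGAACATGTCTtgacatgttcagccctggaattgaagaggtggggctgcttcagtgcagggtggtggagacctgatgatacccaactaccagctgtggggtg
Ccng1 (chr11:40755237-40755536, minus strand): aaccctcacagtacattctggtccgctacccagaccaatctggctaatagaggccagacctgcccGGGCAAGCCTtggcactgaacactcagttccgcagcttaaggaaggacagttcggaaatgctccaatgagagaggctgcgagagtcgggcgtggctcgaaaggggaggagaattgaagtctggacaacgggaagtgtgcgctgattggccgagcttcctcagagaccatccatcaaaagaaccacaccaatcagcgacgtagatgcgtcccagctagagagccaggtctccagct
Mdm2 (chr10:117710709-117711008, minus strand): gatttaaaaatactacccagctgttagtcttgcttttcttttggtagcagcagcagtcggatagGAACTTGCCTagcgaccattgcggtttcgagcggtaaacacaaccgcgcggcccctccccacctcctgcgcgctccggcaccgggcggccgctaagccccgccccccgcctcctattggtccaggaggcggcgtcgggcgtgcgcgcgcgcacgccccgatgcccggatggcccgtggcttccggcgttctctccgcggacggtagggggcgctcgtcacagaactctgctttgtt
The 2 half-sites of Cdkn1a began 73 and 51 bases before the start, with 12 bases between them, and those of Ccng1 and Mdm2 began 185 and 186 bases before it. Of 8 targets with a window and an unadjusted p under 0.05, 3 held a half-site, and of the 10 others 5 did. Of the 4 called genes Zmat3 had no window in the table, Ptgds and Chpf held no half-site, and Uroc1 held 1 that began 27 bases after its start. A match is a run of letters and shows no binding.

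**Figure D3:**
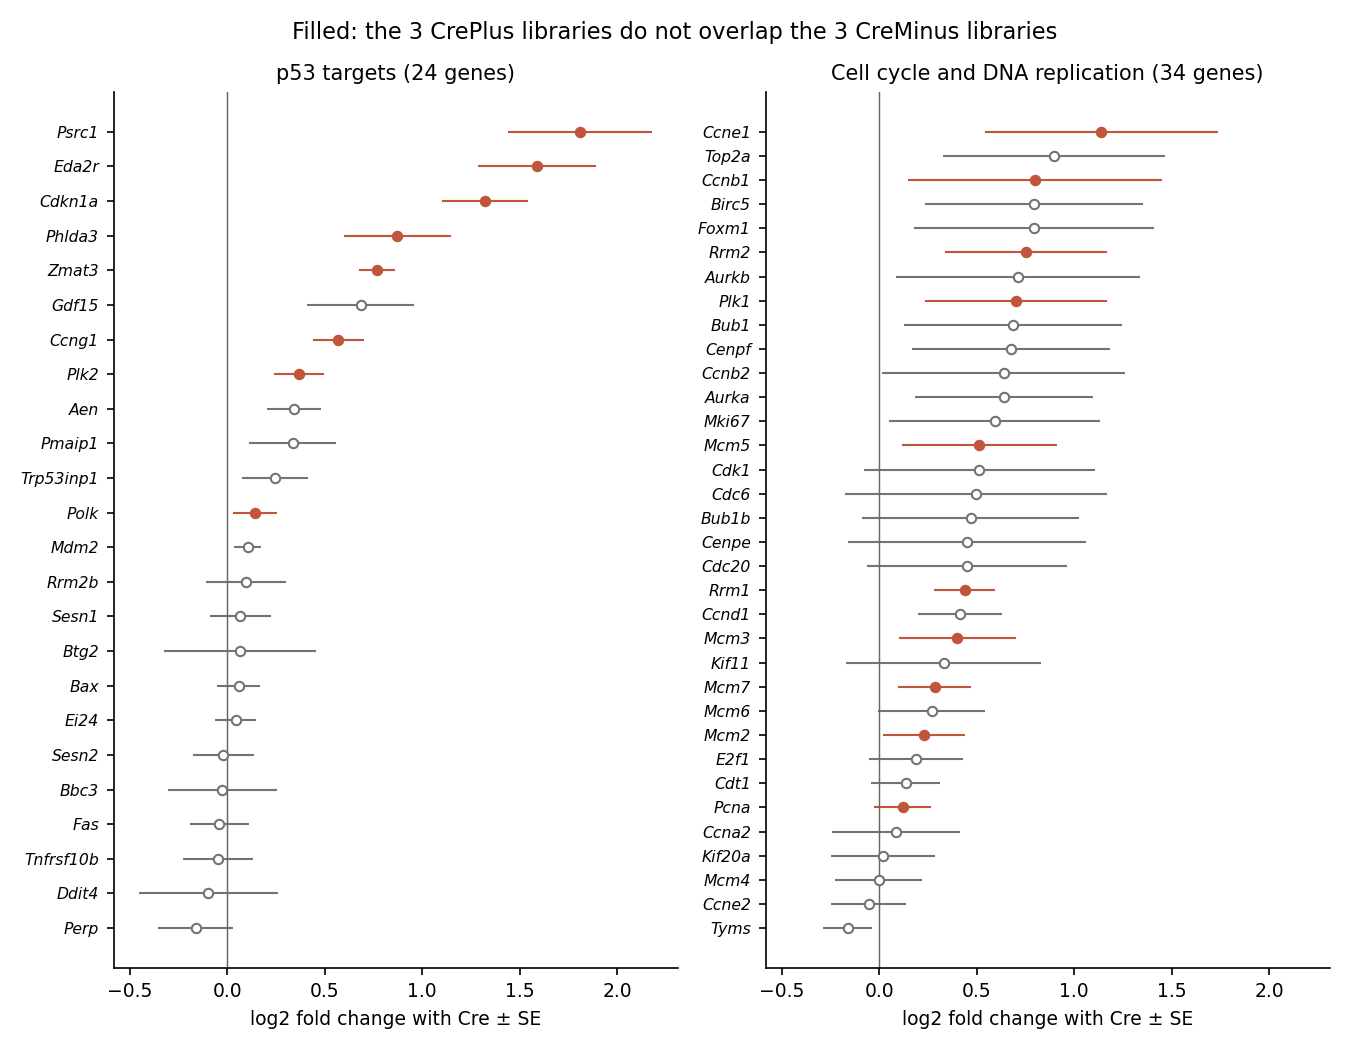
The left panel plots 24 p53 targets and the right panel 34 cell cycle and DNA replication genes, each by its log2 fold change with Cre in sham kidneys and its SE. Filled points mark genes whose CrePlus libraries do not overlap the CreMinus libraries (8 and 10 genes).

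Glis2, a Gli-like transcription factor whose loss causes a cystic kidney disease, was at 184, 226 and 194 CPM in CreMinus and 310.0, 323 and 355 CPM in CrePlus libraries (0.71 ± 0.11, edgeR adjusted p = 0.0945). With a sex term it passed (adjusted p = 0.0419). Pkhd1, the gene of recessive polycystic kidney disease, was at 219, 264 and 221 CPM in CreMinus and 308, 286 and 278 CPM in CrePlus libraries (0.31 ± 0.10, edgeR adjusted p = 1.00), with no overlap either. Of 28 polycystin and cystic disease genes 20 were higher, the median was 0.10, and 5 lay higher and 1 lower with no overlap, against 4.66% and 3.49% of all genes. The 1 lower was Anks6 (-0.16), and Pkd1 itself was among the 8 lower genes. Of 19 primary cilium genes 13 were higher with a median of 0.04, and none had an unadjusted p under 0.05.

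Pard6b, a subunit of the apical Par complex, was at 64.4, 66.7 and 68.4 CPM in CreMinus and 89.3, 92.6 and 92.2 CPM in CrePlus libraries (0.46 ± 0.07, edgeR adjusted p = 0.113). Cdc42bpa, a kinase that acts below Cdc42, was at 86.6, 93.6 and 85.6 CPM in CreMinus and 119.8, 126 and 119.9 CPM in CrePlus libraries (0.46 ± 0.07, 0.113). For both genes each group spread over less than 10 CPM. Llgl2, the basolateral counterpart, had the opposite sign (119.8, 121 and 119 CPM in CreMinus and 115, 99.4 and 91.6 CPM in CrePlus libraries, -0.23 ± 0.09, edgeR adjusted p = 1.00). Of 14 apical polarity genes tested 11 were higher, with a median of 0.10. Frem2, a protein of the Fraser complex that holds epithelia to their basement membrane, was at 23.9, 22.5 and 20.2 CPM in CreMinus and 42.7, 37.7 and 30.6 CPM in CrePlus libraries (0.74 ± 0.14, edgeR adjusted p = 0.235). Lad1, an anchoring protein of basement membranes, was at 167, 131 and 177 CPM in CreMinus and 109.6, 55.9 and 59.4 CPM in CrePlus libraries (-1.08 ± 0.25, edgeR adjusted p = 0.50). CrePlus replicate 1 lay nearer to the CreMinus libraries for Lad1. The authors' second deposited table, which leaves that library out, gives -1.19 (adjusted p = 4.24e-11) against -0.60 (adjusted p = 0.0405) in their first. In the edgeR fits that left out 1 library at a time, the log2 fold change of Lad1 ran from -1.46 to -0.92. How far that library entered the change between the deposited tables was not tested.

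Cables2, a partner of cyclin-dependent kinases, was at 14.7, 16.4 and 14.3 CPM in CreMinus and 22.1, 27.8 and 27.2 CPM in CrePlus libraries (0.76 ± 0.11, edgeR adjusted p = 0.0929), and its relative Cables1 was at 19.6, 26.5 and 16.3 CPM in CreMinus and 15.8, 13.9 and 9.69 CPM in CrePlus libraries (-0.66 ± 0.25, 1.00). Cables2 lay higher and Cables1 lower, each with no overlap. Slc34a2, a phosphate transporter, was at 5.07, 5.68 and 6.55 CPM in CreMinus and 10.2, 11.7 and 9.09 CPM in CrePlus libraries (0.84 ± 0.13, edgeR adjusted p = 0.113), and Tmem129, a ubiquitin ligase of the endoplasmic reticulum, was at 29, 31.1 and 30.8 CPM in CreMinus and 40.2, 39.9 and 41.1 CPM in CrePlus libraries (0.42 ± 0.07, 0.18). The phosphate transporters of the proximal tubule had log2 fold changes of 0.17 for Slc34a1 and 0.32 for Slc34a3, both with overlap. The rule that picked Cables2, Slc34a2, Tmem129, Glis2, Pard6b, Cdc42bpa, Cdkn1a and Frem2 asked for no overlap and no edgeR call. For these genes both are a description, and 4.66% of all genes lay higher without overlap.

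Several lower genes did not overlap between the groups and did not pass in the 12-library edgeR fit. The rule that picked all of them but Gm15441 asked for both, so this is a description. Of all genes 3.49% lay lower without overlap. Txnip, a thioredoxin-binding protein that glucose induces, was at 802, 698 and 505 CPM in CreMinus and 296, 439 and 283 CPM in CrePlus libraries (-0.98 ± 0.21, edgeR adjusted p = 0.394). Gm15441, a gene at chr3:96555768-96566801 that overlaps Txnip (chr3:96557957-96561857), had -0.90 ± 0.18 (edgeR adjusted p = 0.306). In a library that does not mark the strand, reads from the stretch that both genes cover cannot be told apart. Of 11 tested genes of the oxidative stress list Txnip was the only one with an unadjusted p under 0.05. Of all genes 4.05% had such a p in either direction and 1.4% with a lower value. Klhdc8a, a kelch protein (-0.67 ± 0.16), Ptpla, an enzyme of very long fatty acids (-0.84 ± 0.18), Abr, a regulator of small GTPases (-0.29 ± 0.07), Cep97, a centriole protein that holds back cilia (-0.64 ± 0.16), and Zfp36l2, which destabilizes mRNAs (-0.35 ± 0.09), also lay lower with no overlap (edgeR adjusted p = 0.407 to 0.608). At levels below 13 CPM the same held for the chemokine Ccl19 (4.75, 2.96 and 4.68 CPM in CreMinus and 2.8, 1.43 and 1.38 CPM in CrePlus libraries, -1.13 ± 0.30), the procollagen-processing enhancer Pcolce2 (7.29, 6.91 and 3.32 CPM in CreMinus and 2.2, 2.3 and 1.19 CPM in CrePlus libraries, -1.62 ± 0.43) and Spns3, a member of a lipid transporter family (12.3, 5.87 and 7.01 CPM in CreMinus and 5.13, 3.25 and 2.37 CPM in CrePlus libraries, -1.22 ± 0.33). DESeq2 on all 12 libraries called Gm15441 (adjusted p = 0.00159), Txnip (0.00207), Ptpla (0.00962), Abr (0.0249), Klhdc8a (0.0324), Cep97 (0.0495) and Pcolce2 (0.0495). It did not call Zfp36l2 (0.0734), Ccl19 (0.0737) or Spns3 (0.0646). In the authors' first deposited table Txnip (adjusted p = 0.0272), Gm15441 (0.0196) and Pcolce2 (0.0405) passed. With a sex term Pcolce2 passed in edgeR (adjusted p = 0.0184), and its male libraries had the lowest value within each group.

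In the first version of the authors' deposited sham table, 31 genes passed at 0.05 after adjustment (0.216% of 14332 with an adjusted p), 21 higher and 10 lower. A DESeq2 fit of the same 6 libraries called 31 (0.213%), and all 31 were the same genes. DESeq2 on all 12 libraries called 46 (0.307%), 37 higher and 9 lower, and shared 25 of the 31. The second version of the deposited table, which leaves out sham CrePlus replicate 1, has 47 (0.309% of 15209), and 20 genes are in both, 64.5% of the first and 42.6% of the second. The CPM values of the groups were apart for each of the 31, which were called on these same libraries, so this is a description.

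Besides the genes above, the higher genes of that deposited table included Ptpdc1, Anpep, Cish, Vgll4 and Hapln1. Ptpdc1, a phosphatase, was at 45.4, 49.1 and 42 CPM in CreMinus and 70.7, 76.8 and 64.8 CPM in CrePlus libraries (0.64 ± 0.14, edgeR adjusted p = 0.396), and Anpep, aminopeptidase N of the brush border, at 172, 166 and 197 CPM in CreMinus and 274, 248 and 281 CPM in CrePlus libraries (0.59 ± 0.13, 0.484). Cish, an inhibitor of cytokine signalling that STAT5 induces, was at 29.6, 22.3 and 21 CPM in CreMinus and 55, 38.7 and 77.7 CPM in CrePlus libraries, with CrePlus replicate 3, a male, the highest (1.23 ± 0.31, 0.608). Vgll4, a cofactor that restrains TEAD factors, was at 10.9, 12.3 and 11 CPM in CreMinus and 22.1, 16.6 and 17.6 CPM in CrePlus libraries (0.72 ± 0.15). Hapln1, a link protein of the extracellular matrix, was at 0.362, 0.94 and 1.22 CPM in CreMinus and 3.01, 4.02 and 2.47 CPM in CrePlus libraries (1.91 ± 0.50), all near or below 4 CPM.

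DESeq2 on all 12 libraries called 5 of the 10 lower genes of the authors' deposited table and 20 of its 21 higher genes. Bcl6, a transcriptional repressor, was at 28.2, 32 and 32.6 CPM in CreMinus and 10.9, 16.3 and 9.83 CPM in CrePlus libraries and stands at -0.86 (adjusted p = 1.01e-05) in the authors' deposited table, while the 12-library edgeR fit gave -1.33 ± 0.55 (adjusted p = 1.00). Its UNx libraries spread from 19.9 to 125 CPM. Tmem252, a membrane protein gene, was at 85.5, 71.5 and 93.3 CPM in CreMinus and 47.4, 50.3 and 36.3 CPM in CrePlus libraries (-0.90 ± 0.26), Cp, ceruloplasmin of copper and iron transport, at 114, 107 and 84.3 CPM in CreMinus and 62.1, 66.5 and 48 CPM in CrePlus libraries (-0.79 ± 0.26), and Gcgr, the glucagon receptor, at 49.97, 42.8 and 43 CPM in CreMinus and 31.6, 31.8 and 25.7 CPM in CrePlus libraries (-0.61 ± 0.25). Angptl4, an inhibitor of lipoprotein lipase, was at 47.1, 34.2 and 70.6 CPM in CreMinus and 20.9, 21.8 and 26.9 CPM in CrePlus libraries (-1.13 ± 0.43). For these 4 the groups did not overlap, and the edgeR adjusted p was 0.853 to 1.00.

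No cholesterol synthesis gene was called by edgeR. Of 24 tested 18 were higher, the median was 0.16, 5 had an unadjusted p under 0.05, all higher (2.65% of all genes), and 6 lay higher with no overlap (4.66% of all genes). Among those 6 were the enzymes Nsdhl, at 71.3, 76.3 and 77.9 CPM in CreMinus and 91, 87.6 and 85.4 CPM in CrePlus libraries (0.23 ± 0.09), and Mvk, mevalonate kinase, at 12.7, 12.2 and 13 CPM in CreMinus and 14.8, 16.8 and 15.7 CPM in CrePlus libraries (0.32 ± 0.13). Msmo1 (0.28 ± 0.12) and Sc5d (0.25 ± 0.12), which act late in the pathway, were also among them. Tm7sf2, a late sterol reductase, had the lowest value (-0.35 ± 0.16).

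No cell cycle or DNA replication gene was called by edgeR. Of 34 genes 31 were higher, the median was 0.46, 10 lay higher with no overlap (4.66% of all genes) and none was called. Rrm1, a subunit of ribonucleotide reductase, was the only one with an unadjusted p under 0.05, at 21.6, 24.4 and 17.3 CPM in CreMinus and 29.4, 30.2 and 26.2 CPM in CrePlus libraries (0.44 ± 0.16, edgeR adjusted p = 1.00). That 1 of 34 is near the 2.65% of all genes with such a p and a higher value. Ccnd1, cyclin D1, was at 254, 352 and 349 CPM in CreMinus and 311, 484 and 480.4 CPM in CrePlus libraries (0.42 ± 0.22), and Top2a, a topoisomerase of dividing cells, at 6.02, 3.57 and 4.82 CPM in CreMinus and 9.07, 5.88 and 11.9 CPM in CrePlus libraries (0.90 ± 0.57), both with overlap. By library, the mean deviation of the list from the 6-library mean, in log2 CPM, was -0.06, -0.42 and -0.16 in CreMinus and 0.25, -0.05 and 0.45 in CrePlus libraries. CreMinus replicate 2 was lowest and CrePlus replicate 3 highest, and the median was 0.32 without the first and 0.33 without the second.

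Tubular injury genes were high in 1 mouse. Havcr1, which encodes the injury marker KIM-1, was at 2.17, 1.32 and 12.3 CPM in CreMinus and 74.2, 3.92 and 24.8 CPM in CrePlus libraries, and Lcn2, lipocalin-2, at 0.679, 0.846 and 1.22 CPM in CreMinus and 5.26, 1.82 and 1.04 CPM in CrePlus libraries. Sham CrePlus replicate 1 was the highest library for both, and the groups overlapped. Of 22 injury genes 16 were higher and the median was 0.24, but the mean deviation of the list was -0.10, -0.31 and -0.22 in CreMinus and 0.92, 0.00 and -0.29 in CrePlus libraries, and without CrePlus replicate 1 the median was -0.06. Sox9, a transcription factor of regenerating tubule cells, was at 0.86, 0.94 and 0.655 CPM in CreMinus and 2.2, 1.2 and 1.38 CPM in CrePlus libraries (0.96 ± 0.33, edgeR adjusted p = 1.00), and 1 member of 22 without overlap is near the 4.66% of all genes.

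No macrophage marker was called by edgeR. Of 19 macrophage markers tested 8 were higher and 11 lower, none had an unadjusted p under 0.05, and the median was -0.11. Their summed level was 347 to 705 CPM in CreMinus and 372 to 677 CPM in CrePlus libraries. Lyz2, lysozyme of myeloid cells, was at 14.4, 6.76 and 116 CPM in CreMinus and 35.8, 13.8 and 23 CPM in CrePlus libraries, with the top value in CreMinus replicate 3. CrePlus replicate 1 was the other library with high macrophage markers, and the median was 0.52 without CreMinus replicate 3 and -0.51 without CrePlus replicate 1, so its sign rested on single mice. Of 9 interferon regulatory factors Irf5 was the only one without overlap, and the median was 0.03. That count is near the share over all genes, 8.16% in either direction and 4.66% higher. Of 18 interferon-stimulated genes 8 were higher (median -0.02), and Ifit2 alone had an unadjusted p under 0.05 (12.5, 14.8 and 11.3 CPM in CreMinus and 18.6, 18.7 and 17 CPM in CrePlus libraries, 0.50 ± 0.13, edgeR adjusted p = 0.695). That 1 of 18 is near the 4.05% of all genes with such a p. How far immune cells entered the differences of other genes was not tested.

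No marker of a kidney cell type was called by the 12-library edgeR fit, and in whole tissue fewer cells of a type and less RNA per cell cannot be told apart. Of 14 proximal tubule markers 10 were higher with a median of 0.09, of 12 loop and distal tubule markers 2 were higher (-0.11), and of 13 collecting duct markers 7 (0.01). Aqp2, the vasopressin-regulated water channel, was at 138, 97.3 and 74.6 CPM in CreMinus and 149.9, 297 and 119 CPM in CrePlus libraries (0.87 ± 0.36, edgeR adjusted p = 1.00), with CrePlus replicate 2 the highest. Podocyte markers were lower for 10 of 11 genes (median -0.26), endothelial markers for all 13 tested (median -0.17) and mural cell markers for all 5 tested (median -0.37). Acta2, smooth muscle actin, was at 87.7, 49.98 and 50.8 CPM in CreMinus and 46.5, 39 and 28.2 CPM in CrePlus libraries, and Tagln, transgelin, at 72.6, 38.2 and 39.3 CPM in CreMinus and 37.6, 27.6 and 19.96 CPM in CrePlus libraries. In both, all CrePlus libraries lay below all CreMinus libraries and CreMinus replicate 1 was far above the other 2. DESeq2 on the 6 sham libraries with a sex term, the alternative added after the data were seen, called Acta2 (adjusted p = 0.0349), Tagln (0.0402), Myh11, a smooth muscle myosin (0.00915), and Atp6v0d2, a proton pump subunit of the collecting duct (0.0495), all lower. The median of podocyte markers was -0.05 without CrePlus replicate 3, that of endothelial markers 0.00 without CreMinus replicate 1, and that of mural markers -0.04 without CreMinus replicate 1.

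**Figure D4:**
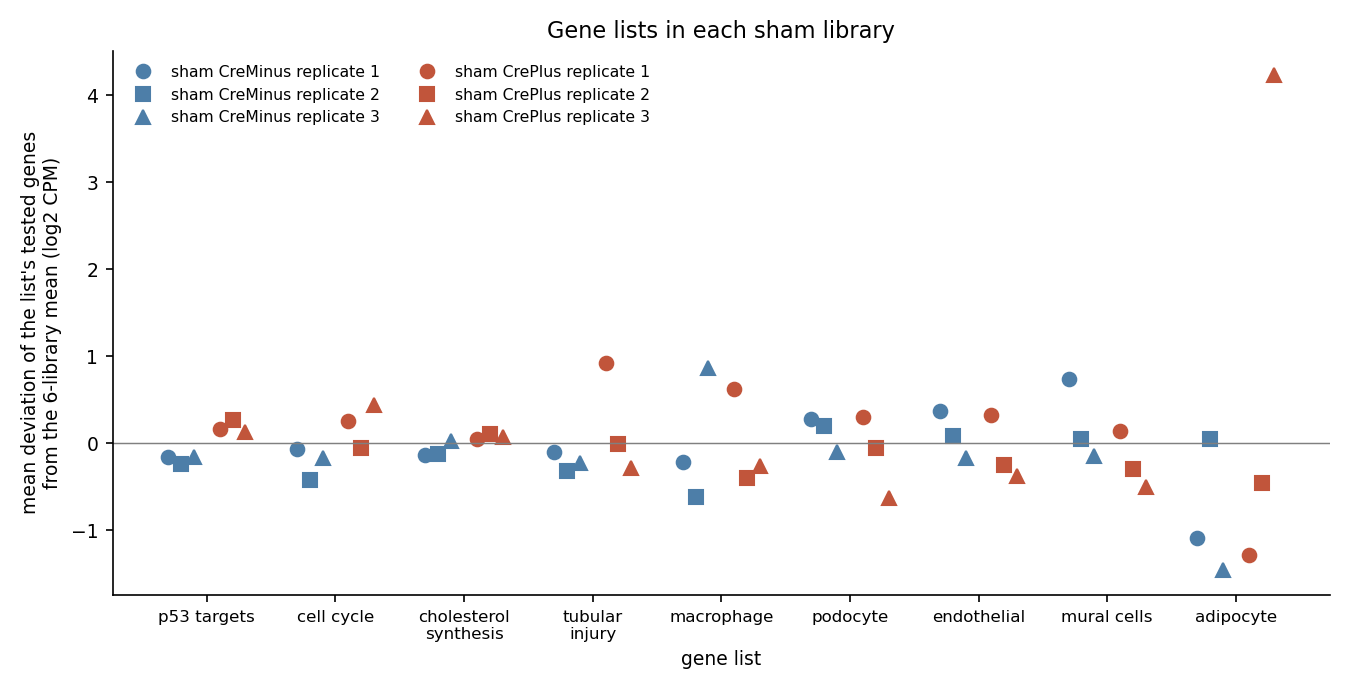
For 9 gene lists, each point is 1 sham library and gives the mean deviation of the list's tested genes from their 6-library mean, in log2 CPM. The 3 CrePlus libraries lie above the 3 CreMinus libraries for p53 targets, cell cycle genes and cholesterol synthesis genes, by a small gap for the last 2, while CrePlus replicate 1 is highest for injury genes, CreMinus replicate 3 for macrophage markers and CrePlus replicate 3 for adipocyte markers.

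Adipocyte genes marked a single library. Cfd, adipsin, was at 8.6 CPM in CrePlus replicate 3 and at most 0.376 CPM in the other sham libraries, Adipoq, adiponectin, at 5.04 against at most 0.17, and Plin1, perilipin, at 5.88 against at most 0.0468. Ucp1 had the largest fold change of the 3 tested adipocyte markers (7.41 ± 2.35, edgeR adjusted p = 1.00), with the counts in that library. Without CrePlus replicate 3 the log2 fold changes were 1.12 for Chpf, 3.06 for Ptgds, 0.72 for Zmat3 and -1.59 for Uroc1.

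The Cre comparison in UNx kidneys used other mice and so set the sham values beside a second set of libraries. The sexes were not balanced there: UNx CreMinus held 1 male and 2 females and UNx CrePlus 2 males and 1 female. Depth was uneven as well, with 42025815, 21964896 and 18914300 counts in UNx CreMinus and 41699032, 42099796 and 42785476 in UNx CrePlus libraries. How far depth entered the UNx values was not tested. All 4 genes called in sham kidneys were among the 21 called in UNx kidneys (0.14% of genes), with the same sign. Both comparisons came from the same fit with a shared estimate of spread. A gene called in sham kidneys therefore tends to vary little among UNx libraries too, which favours a joint call, and the count is a description. Ptgds was at 2.47, 4.05 and 3.14 CPM in UNx CreMinus and 35.3, 41.2 and 78.1 CPM in UNx CrePlus libraries (log2 fold change 4.01, edgeR adjusted p = 0.0019), Chpf had 1.31, Zmat3 0.97 and Uroc1 -2.42. Of the 41 genes that the rule named in full, 37 had the same sign in UNx kidneys, against 67.1% of all genes, and 29 also had no overlap there. Of 1221 genes without overlap in sham kidneys (8.16%), 344 (28.2%) had none in UNx kidneys in the same direction, where 8.33% of all genes were higher and 7.47% lower without overlap. Among p53 targets the UNx median was 0.29 with 22 of 24 higher, and among cell cycle genes 1.03 with 33 of 34 higher, both above the sham medians.

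The difference between the 2 Cre effects was tested as an interaction, and edgeR called 0 genes (0%) with 277 at an unadjusted p under 0.05 (1.85%). DESeq2 on all 12 libraries called 0 as well, with 337 at an unadjusted p under 0.05. Of the 41 named genes 8 had an unadjusted p under 0.05, and since they were named for their sham values, that count is a description. For Uroc1 the UNx effect was larger, with a difference of -0.90 (unadjusted p = 0.00655), and for Eda2r it was larger by 1.06 (0.0297). Slc34a2 had a smaller effect in UNx kidneys, with a difference of -0.51 (0.0184). Cish, Bcl6, Ccl19 and Cep97 had the opposite sign in UNx kidneys (-0.19, 1.26, 0.29 and 0.14). Bcl6 was at 50.5, 20.3 and 22.9 CPM in UNx CreMinus and 79.5, 125 and 19.9 CPM in UNx CrePlus libraries, and the 3 male libraries, the first CreMinus and the first 2 CrePlus values, lay above the 3 female ones. With a sex term in the fit the UNx log2 fold changes were -0.11, 0.90, 0.27 and 0.14, and the difference of Bcl6 was 2.19 (unadjusted p = 0.00676) against 2.58 (0.00661) without it. None of these differences passed after adjustment over all genes (edgeR adjusted p = 1.00 for each).

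**Figure D5:**
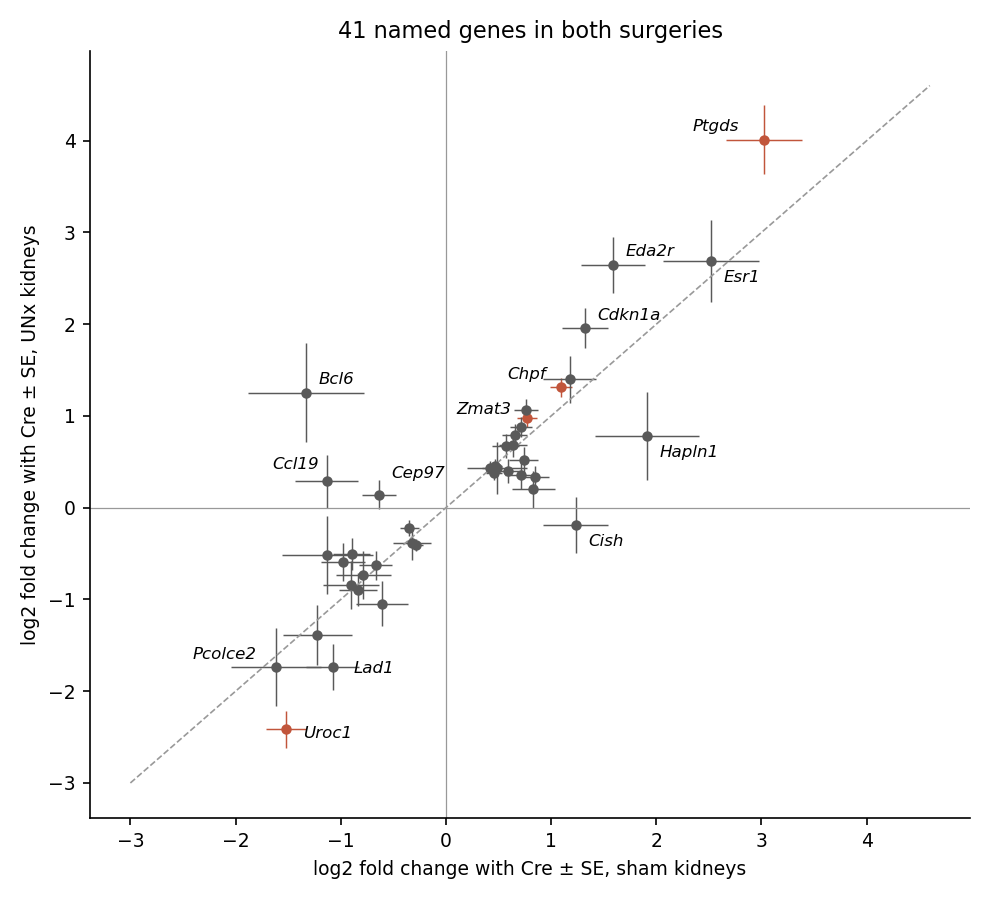
Each point is 1 of the 41 named genes, with its log2 fold change with Cre in sham kidneys on the horizontal axis and in UNx kidneys on the vertical axis, each with its SE. The dashed line marks equal values, filled red points are the 4 genes called in sham kidneys, and Cish, Bcl6, Ccl19 and Cep97 lie in the quadrants of opposite sign.

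The number of calls differed between fits with and without a sex term. With a sex term, the 12-library edgeR fit called 10 genes (0.0668%), 7 higher and 3 lower: Chpf, Ptgds, Zmat3, Esr1, Cables2, Glis2 and Pnpla6 higher, and Uroc1, Pcolce2 and Rcan2 lower. In a fit of the 6 sham libraries alone edgeR called 0 genes, with 520 at an unadjusted p under 0.05, and with a sex term it called 9 (0.0618%), among them Cdkn1a (adjusted p = 0.0268) and Cp (adjusted p = 0.032). The same 6 libraries and sex term in DESeq2, an alternative added after the data were seen, gave 132 (0.907%), which held 30 of the 31 genes of the authors' deposited table. In the female libraries alone edgeR called 7 (0.0458% of 15279), 6 higher, among them Chpf, Ptgds, Esr1, Fgg and Serpina6, and Uroc1 lower. Serpina6, the corticosteroid-binding globulin gene, was named after its values were seen, and was at 32.7, 44.7 and 0.0988 CPM in CrePlus and 1.04, 1.79 and 0.14 CPM in CreMinus libraries. Both male libraries, replicate 3 of each group, lay near 0, and the 2 female CrePlus libraries were the only sham libraries above 2 CPM.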

How the data were processed

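RNA of 12 mouse kidney libraries was prepared with the SMART-Seq v4 kit, which does not mark the strand, per the labels' protocols. The submitters' processing notes name FastQC 0.11.5, cutadapt 1.11, HTSeq and DESeq2, with the builds mm10 and GRCm38. For the aligner and the annotation, nothing is given in the sources used here, nor is HTSeq's strand setting. The deposited table of all libraries holds raw read counts per gene. The deposited sham tables also hold the authors' log2 fold changes and the authors' p-values and adjusted p-values. The 3 other deposited tables were not used here.

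Of 24067 rows, 5 repeated symbols with identical counts were dropped, which left 24062 genes. Replicates were numbered in accession order within the labelled groups. Genes were kept by filterByExpr, scaled by TMM and tested by edgeR 4.0.16 (R 4.3.3) with the quasi-likelihood test over 4 group means of all 12 libraries, so that the groups shared an estimate of spread. A gene was called at a Benjamini-Hochberg adjusted p under 0.05 over all 14970 tested genes. CPM values come from edgeR's cpm function with TMM-scaled library sizes. An exact two-sided permutation test of 3 against 3 cannot give less than 0.10, and none was run. Alternatives were other size factors and filters, DESeq2 1.42.0, limma 3.58.1 with voom, a sex term, the sham or the female libraries alone, and each library left out. The script was tested on simulated data.

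Genes named in full were Pkd1, Pkd2, Irf5 and Esr1, the called genes, the 10 uncalled genes a direction with the smallest p (mean of at least 1 CPM, no overlap between groups, no systematic symbol) and those called in the authors' first sham table. Of each gene list, up to 4 tested members by smallest p could be named; other members were chosen for their role or after their values were seen. The lists and the comparison were chosen with earlier results of these data known. Gene positions and promoter windows came from RefSeq tables of GRCm38. A few of the named genes are not reported here.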

Additional observations from a re-analysis of the deposited data

How the results depend on the processing

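The sham comparison called 4 genes, and 3 or 4 under other size factors, other filters and limma-voom. DESeq2 on 12 libraries called 46, a sex term 10, and the female libraries alone 7. The 6 sham libraries alone gave 0 calls in edgeR (520 at an unadjusted p under 0.05), 31 in DESeq2, 9 with a sex term and, in an alternative chosen after seeing the data, 132 with a sex term in DESeq2. Leaving out 1 library gave 0 to 3 calls, with 0 without sham CreMinus replicate 2. The authors' deposited table had 31 calls in the first version and 47 in the second. The cause of these differences was not tested. In the 6 sham libraries alone the edgeR adjusted p was 0.149 for Chpf and Ptgds, 0.478 for Zmat3 and 0.342 for Uroc1, and limma-voom gave 0.1185 for Ptgds. The interaction called 0 genes under each alternative run for it. The fold changes of the 41 named genes kept their sign in all 24 alternatives. The rule that named them drew on these same libraries, and 40 of them had no overlap between the sham groups. A turn of sign was therefore hardly possible, and the kept signs are a description. Of 984 list medians 33 moved by more than the spread between libraries. No paired analysis was possible because the labels give no replicate numbers, and those used here follow accession order. The 3 libraries a group limit what can be called, and genes near 1 CPM rest on few reads.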

Other observations

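Among 18 tested genes of the EGF and IGF family 11 were higher, the median log2 fold change was 0.13, 3 had an unadjusted p under 0.05 and a higher value (2.65% of all genes), 1 a lower value (1.4%), and 4 lay higher without overlap (4.66%). Nrg1, a ligand of ErbB receptors, had the largest non-overlapping value, at 5.16, 4.37 and 5.24 CPM in CreMinus and 7.54, 8.66 and 8.20 CPM in CrePlus libraries (0.72 ± 0.24, edgeR adjusted p = 1.00). Igfbp5, which binds insulin-like growth factors, was at 488, 511 and 500.3 CPM in CreMinus and 655, 569.8 and 645 CPM in CrePlus libraries (0.32 ± 0.11), again without overlap. Among 11 phosphate and vitamin D genes Cyp24a1, the enzyme that breaks down active vitamin D, was at 103, 47.8 and 34.3 CPM in CreMinus and 12.1, 35.9 and 29.0 CPM in CrePlus libraries (-1.27 ± 0.52), with overlap and with CreMinus replicate 1 the highest library. Among 12 endoplasmic reticulum stress genes Asns, asparagine synthetase, was at 2.63, 3.52 and 3.09 CPM in CreMinus and 6.65, 7.60 and 3.56 CPM in CrePlus libraries (0.95 ± 0.27), without overlap, in a list with a median of 0.02. None of these genes was called by edgeR.

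Among energy genes, 12 of 15 glycolysis genes were higher (median 0.07), 9 of 17 fatty acid oxidation genes (median 0.05) and 4 of 19 respiratory chain subunits (median -0.02), with none called by edgeR. Among 18 circadian clock genes 12 were higher (median 0.21), and Clock, the core activator, was at 53.7, 66.3 and 66.6 CPM in CreMinus and 84.7, 69.0 and 83.0 CPM in CrePlus libraries (0.34 ± 0.11), without overlap. The labels give no hour of kidney collection. Hdc, which makes histamine, was at 14.7, 30.9 and 6.03 CPM in CreMinus and 61.6, 139 and 5.68 CPM in CrePlus libraries, low in both male libraries and highest in the female CrePlus libraries. Among 15 immediate-early genes 9 were higher and Zfp36, an mRNA decay factor, was lower without overlap, at 45.99, 29.5 and 35.6 CPM in CreMinus and 25.3, 21.95 and 24.7 CPM in CrePlus libraries (-0.63 ± 0.25).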
